A study of Rattus norvegicus with 16 samples.

Results

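Base excision, nucleotide excision and mismatch repair genes were examined in the liver and the bone marrow of rats dosed with N-nitrosodiethylamine (NDEA), a nitrosamine that liver enzymes turn into an agent that ethylates DNA bases. The genes were a list of 35 named members, 14 of base excision, 15 of nucleotide excision and 6 of mismatch repair, matched by gene name. Of the 35, 34 were matched to a row among 32623 genes in the count table, and Ercc4 was not analysed here. Neil2 had 0 counts in all 16 libraries, so 33 members had any count.

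The animals were female Big Blue rats, transgenic for a vector with the reporter genes cII and lacI, which all groups carried. They arrived at 6 weeks of age, were acclimated for 1 week and were gavaged daily for 28 days with 0 (control) or 10 mg/kg/day of NDEA. Rats were killed 3 days after dosing ended, so the values describe that time and not the days of dosing. Each tissue had 4 control and 4 NDEA libraries. The labels give 6 rats per dose group but do not tie a library to a rat, so p-values measure the spread between the libraries. In whole tissue, a lower value can mean fewer cells of a type or less RNA per cell, and these cannot be told apart.

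Base excision repair starts with a DNA glycosylase that cuts out a damaged base, after which Apex1 nicks the strand and a polymerase and a ligase close the gap. Nucleotide excision repair removes a stretch of DNA around a bulky lesion, found either across the genome or where RNA polymerase has stalled. Mismatch repair corrects pairing errors left by replication, and also acts on some alkylated bases. After incision, nucleotide excision repair, mismatch repair and the long-patch form of base excision repair share gap filling and ligation with DNA replication. This machinery includes Pcna, the Rfc clamp loader, the replicative polymerases and Lig1.

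Liver libraries held 5000844 to 6863592 counts and marrow libraries 2162182 to 5705705. Levels are CPM, a gene's count relative to its library's scaled total. The libraries count the 3' end of transcripts, so a level was not divided by transcript length. Defining genes followed the tissue labels: Alb was at 63650 to 95242 CPM in liver and had at most 2 counts in a marrow library, and Mpo had 0 counts in liver and was at 414 to 622 CPM in marrow. In liver the summed level of 10 dividing-cell genes was 8.11 to 45.9 CPM in control and 167 to 278 CPM in NDEA, and 7 of the 10 were called higher, against 2.87% of all tested genes. All 6 genes of a short p53 list were called higher in NDEA liver, against the same share. Here "called" means that limma-voom gave an adjusted p under 0.05 (Benjamini-Hochberg, over all tested genes).

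No member was called in either tissue. In liver 0 of 29 tested members were called, against 6.61% of all tested genes, and Mutyh came closest (limma-voom adjusted p = 0.153). At an unadjusted p under 0.05 there were 2 members, Ogg1 and Mutyh, against 18.7% of all tested genes. In marrow 0 of 27 tested members were called, against 0.00% of all tested genes, and 2 members, Mutyh and Pms2, had an unadjusted p under 0.05, against 14.5% of all tested genes. The median liver log2 fold change of the tested members was 0.19, beside 0.01 for all tested genes, and 21 of 29 estimates were above 0, beside 51.2% of all tested genes. The marrow median was -0.02, beside -0.10, and 13 of 27 marrow estimates were above 0, beside 44.3% of all tested genes.

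**Figure D1:**
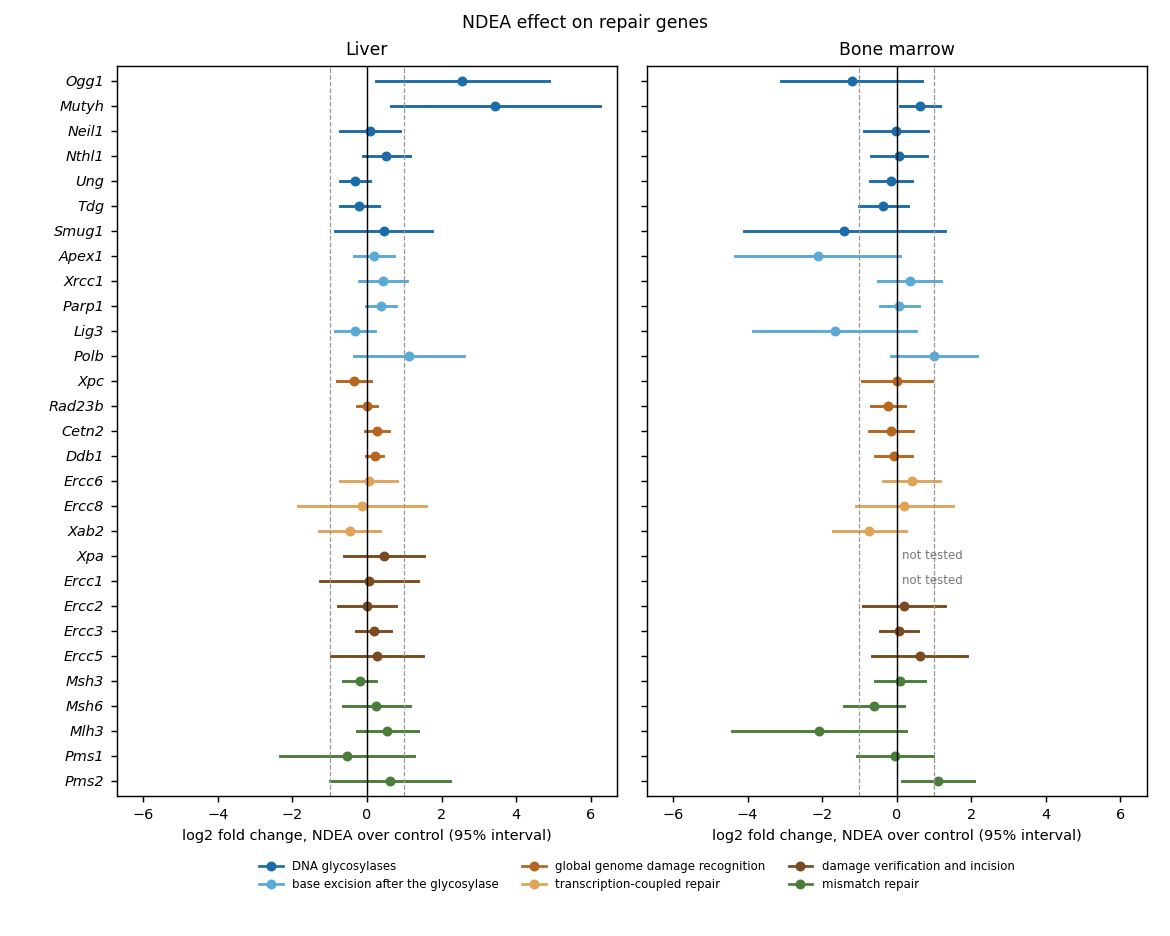
NDEA effect on each tested member, as log2 fold change over control with its 95% interval (limma-voom, 4 libraries against 4), in liver (left) and bone marrow (right), coloured by role; dashed lines mark a 2-fold change. No member was called; the widest intervals belong to members with few counts or with a library at 0, and Xpa and Ercc1 were not tested in marrow.

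Ogg1 and Mutyh had the largest liver estimates of the tested members. For each, fewer than 4 liver controls reached the CPM needed for testing. They were therefore tested only because their NDEA libraries were high. Both act on the same lesion, oxidised guanine: Ogg1 removes 8-oxoguanine and Mutyh removes the adenine mispaired opposite it. Their RefSeq promoter windows, 300 bases around the gene start on build GRCr8, are shown because of these estimates, and that of Msh6 because it was the sole member window with an E2F match. Capitals mark matches, on either strand, to the CCAAT box (CCAAT), the E2F site (TTTCCCGC or TTTGGCGC), the CHR element (TTTGAA) or the p53 site; where these overlap they share capitals.
Ogg1, chr4:148030336-148030635, plus strand: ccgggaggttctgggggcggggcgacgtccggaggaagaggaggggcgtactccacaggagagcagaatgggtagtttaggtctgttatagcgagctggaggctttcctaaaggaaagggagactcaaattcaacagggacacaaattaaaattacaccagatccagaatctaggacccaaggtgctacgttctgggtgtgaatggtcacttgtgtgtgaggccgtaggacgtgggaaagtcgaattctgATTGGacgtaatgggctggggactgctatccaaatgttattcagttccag
Mutyh, chr5:135510504-135510803, plus strand: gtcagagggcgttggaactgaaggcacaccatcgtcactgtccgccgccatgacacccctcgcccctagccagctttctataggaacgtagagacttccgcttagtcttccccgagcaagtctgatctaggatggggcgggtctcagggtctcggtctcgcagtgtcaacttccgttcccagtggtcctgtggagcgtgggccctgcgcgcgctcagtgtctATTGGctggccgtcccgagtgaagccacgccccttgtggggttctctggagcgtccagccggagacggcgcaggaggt
Msh6, chr6:12333456-12333755, minus strand: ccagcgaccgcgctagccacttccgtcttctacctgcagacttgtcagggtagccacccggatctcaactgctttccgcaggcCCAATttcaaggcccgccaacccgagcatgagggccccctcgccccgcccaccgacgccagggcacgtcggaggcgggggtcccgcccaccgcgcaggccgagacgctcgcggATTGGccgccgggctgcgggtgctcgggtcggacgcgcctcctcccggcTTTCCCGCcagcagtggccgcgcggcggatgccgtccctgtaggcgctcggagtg
Each of the Ogg1 and Mutyh windows held 1 CCAAT box and no other match, and the Msh6 window held 2 CCAAT boxes and 1 E2F site.

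Windows were in the RefSeq table for 27 members. A CCAAT box was in the windows of 15 of the 27 (55.6%), against 37.5% of 33469 windows of all genes. Some members have more than 1 window, and by window the CCAAT box was in 17 of 31. The CHR element was in 4 of 27 (14.8%, against 18.3%), the E2F site in 1 of 27 (3.7%, against 1.45%) and the p53 site in 0 of 27 (against 0.0598%). The member windows had a median GC content of 59.7%, against 51.7% in all windows. These are matches of letters in a short window and were not tested.

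Ogg1 (ENSRNOG00000052140, chromosome 4, position 145282797 in the deposited table, whose build is not named) was at 1.56, 1.40, 0 and 4.06 CPM in the liver controls and at 5.04, 4.56, 5.91 and 7.49 CPM in NDEA liver. These are 10, 8, 0 and 22 counts against 33, 24, 42 and 50. All 4 NDEA libraries lay above all 4 controls, but the estimate was wide (log2 fold change 2.55, SE 1.12, limma adjusted p = 0.212). The control at 0 counts allows up to 0.522 CPM of its unscaled total. Without that library the log2 fold change was 1.46, and without control 4 it was 3.20. The 3' end of Ogg1 overlaps Camk1 on the opposite strand in RefSeq, and the strand setting of the counting is not given in the sources used here. RefSeq models of 13 of the 35 members overlap another protein-coding gene, among them Lig3 (Rffl), Ercc1 (Polr1g), Ercc2 (Klc3), Tdg (Glt8d2), Msh6 (Fbxo11), Ercc3 and Rad23b at the 3' end, so their counts may hold reads of the neighbour. Camk1, looked up because of that overlap, was at 57.5 ± 7.70 CPM in control liver and 58.7 ± 6.27 CPM with NDEA (mean ± SD of 4 libraries).

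Mutyh (ENSRNOG00000017887, chromosome 5, position 135663371) was at 0.156, 0, 3.61 and 2.03 CPM in the liver controls and at 5.66, 12.5, 6.89 and 4.20 CPM in NDEA liver, which is 1, 0, 20 and 11 counts against 37, 66, 49 and 28. The groups did not overlap here either. The log2 fold change was 3.44 (SE 1.35, limma adjusted p = 0.153). Mutyh was called with limma-trend (adjusted p = 0.0497) and in a fit of all 16 libraries together (adjusted p = 0.0319), and over 16 alternatives its adjusted p ran from 0.0319 to 0.375.

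In marrow both genes stood higher and had no call. Mutyh was at 47.4, 50.6, 81.2 and 47.0 CPM in marrow controls and at 88.8, 95.9, 76.1 and 80.7 CPM in NDEA marrow, so control 3 lay within the NDEA range (log2 fold change 0.63, SE 0.25, limma adjusted p = 0.284). Ogg1 was at 20.5, 29.8, 6.28 and 12.5 CPM in controls and at 10.2, 21.8, 0.208 and 17.2 CPM in NDEA marrow, with overlapping groups (log2 fold change -1.20, SE 0.90, limma adjusted p = 0.522). Its marrow estimate was 0.12 without NDEA 3, the library at 0.208 CPM, and -1.99 without NDEA 2. Subtracting the marrow effect of NDEA from its liver effect gave 3.88 for Ogg1 (SE 1.56, limma adjusted p = 0.201) and 2.82 for Mutyh (SE 0.96, limma adjusted p = 0.131). The difference for Ogg1 was 2.50 without marrow NDEA 3 and 4.61 without marrow NDEA 2. That for Mutyh was 1.88 without liver control 2 and 3.66 without liver control 3. The interaction called 0 of 30 tested members, against 2.28% of all tested genes. The median difference was 0.30 over the tested members, beside 0.32 over all tested genes. At an unadjusted p under 0.05 the interaction held 4 members, Ogg1, Mutyh, Apex1 and Mlh3, against 16.8% of all tested genes.

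**Figure D2:**
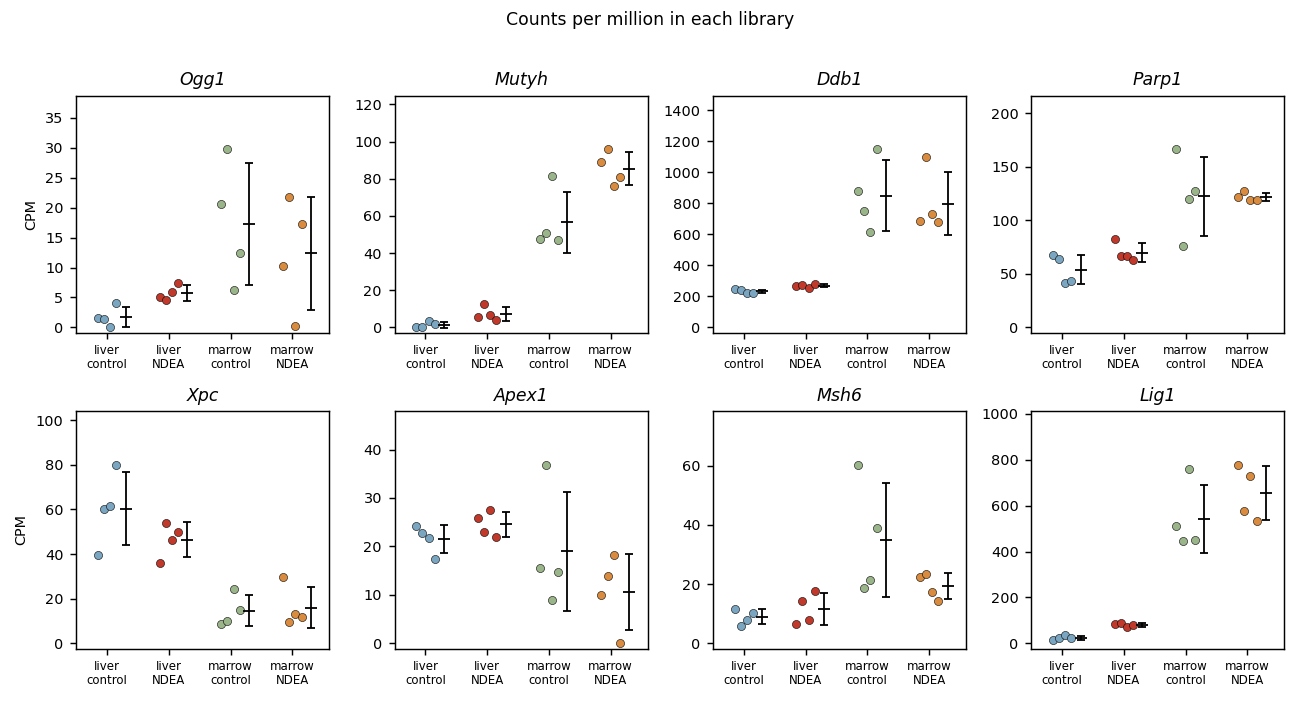
Level in each library (points, CPM, linear axis from 0, 4 libraries per group) with mean and SD (bar) for 7 members and Lig1. CPM were scaled within each tissue, so liver and marrow levels are set side by side only as a description; for Ogg1, Mutyh, Ddb1 and Lig1 the liver groups do not overlap.

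None of the other glycosylases was called in liver, and their groups overlapped. Nthl1 and Neil1, which remove oxidised pyrimidines, had liver log2 fold changes of 0.53 (95% interval -0.09 to 1.14) and 0.08 (-0.72 to 0.88). Ung, which removes uracil, had -0.32 (-0.73 to 0.08), and Tdg, which removes thymine from G:T mispairs, had -0.21 (-0.73 to 0.32). Smug1, a second uracil glycosylase, was at 2.03 to 12.0 CPM in control and 3.23 to 7.45 CPM in NDEA liver. In marrow its log2 fold change was -1.40 (SE 1.28, limma adjusted p = 0.607), with 0 counts in NDEA 3. It was -0.21 without NDEA 3 and -2.37 without NDEA 2. Neil3 was at 0 counts in all libraries but marrow control 4, at 1.79 CPM.

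After the glycosylase, Apex1 cuts the strand, Parp1 senses the nick, Xrcc1 is the scaffold, Polb fills the gap and Lig3 seals it. Parp1 was at 67.1, 63.7, 41.5 and 43.3 CPM in control liver and at 82.8, 66.3, 66.2 and 63.3 CPM in NDEA liver. The ranges overlapped, with NDEA 2, 3 and 4 below control 1 (log2 fold change 0.38, SE 0.19, limma adjusted p = 0.297). Polb had the largest liver estimate of these 5 genes, 1.12 (SE 0.71, limma adjusted p = 0.428). It was at 7.81, 10.3, 2.88 and 0.553 CPM in control and at 6.27, 16.7, 6.19 and 7.79 CPM in NDEA liver. Its estimate was 0.36 without control 4 and 1.61 without control 2.

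Apex1 was steady in liver and scattered in marrow. Its liver levels were 17.3 to 24.2 CPM in control and 21.9 to 27.4 CPM in NDEA (log2 fold change 0.19, SE 0.26, limma adjusted p = 0.748). In marrow it was at 15.5, 36.8, 8.94 and 14.7 CPM in control and at 9.97, 13.9, 18.3 and 0 CPM in NDEA. The marrow estimate of -2.12 (SE 1.05, limma adjusted p = 0.363) was -0.34 without NDEA 4 and -2.88 without NDEA 2. NDEA 4 had 0 counts for Apex1, Lig3 and Mlh3. In it 9.85% of all tested marrow genes were at 0, against 0.336% to 3.92% in the other marrow libraries. A count of 0 there allows up to 0.554 CPM of its unscaled total. Among marrow libraries, summed skeletal-muscle markers were at 107 to 373 CPM in control and 34.2 to 42.8 CPM in NDEA, and mitochondrial genes took 6.41% to 13.0% and 8.37% to 15.8% of all counts. The part of the muscle markers in the marrow results was not tested.

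Damage recognition across the genome was the role measured most closely. Xpc binds the distorted helix with Rad23b and Cetn2, and Ddb1 with Ddb2 finds lesions that Xpc misses. In each tissue the 95% interval of all 4 tested members of this role lay within a 2-fold change either way. Over all members this held for 14 of 29 in liver and 10 of 27 in marrow, beside 44.0% and 28.5% of all tested genes. Xpc was at 39.7, 60.4, 61.5 and 80.0 CPM in control and at 35.8, 54.1, 46.4 and 49.8 CPM in NDEA liver, with overlapping groups (log2 fold change -0.34, SE 0.22, limma adjusted p = 0.427; -0.19 without control 4 and -0.54 without control 1). Rad23b was at 147 to 206 CPM in control and 167 to 200 CPM in NDEA liver (log2 fold change 0.00, 95% interval -0.27 to 0.28). In marrow Rad23b had an estimate of -0.23 (95% interval -0.68 to 0.22), which was -0.13 without control 4 and -0.31 without control 3.

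Ddb1, named here after its values were seen, was at 245, 240, 221 and 223 CPM in control and at 269, 276, 257 and 278 CPM in NDEA liver. The groups did not overlap and the difference was small (log2 fold change 0.21, SE 0.11, limma adjusted p = 0.311). With Ogg1 and Mutyh, it made 3 of 29 tested members higher without overlap in NDEA liver, against 6.54% of all tested genes. There were 0 lower, against 5.98%. Ogg1 and Mutyh entered the tested set only through their high NDEA libraries, so their lack of overlap is no added support for a rise. In marrow 0 of 27 members were without overlap in either direction, against 5.60% of all tested genes. Ddb2, a p53 target in human cells, was too low to be tested within a tissue, at 0.468 to 2.63 CPM in control and 0.15 to 6.27 CPM in NDEA liver. Beside it, Cdkn1a rose from 23.5 ± 16.7 to 327 ± 47.9 CPM and Mdm2 from 19.2 ± 5.76 to 64.4 ± 9.83 CPM (mean ± SD of 4 libraries).

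Of the transcription-coupled genes, Ercc6 and Ercc8 act at stalled polymerase and Xab2 binds Xpa. Xab2 had estimates of -0.47 in liver (SE 0.40, limma adjusted p = 0.580) and -0.73 in marrow (SE 0.47, limma adjusted p = 0.463). The liver estimate was -0.28 without control 3 and -0.66 without control 4. The marrow estimate was -0.31 without NDEA 4 and -0.99 without control 3. Ercc6 was at 7.49 to 18.4 CPM in control and 9.68 to 13.8 CPM in NDEA liver. Ercc8 was at 1.93 to 5.00 CPM in control and 1.14 to 5.20 CPM in NDEA liver. Uvssa had counts in 2 of the marrow libraries only and was not tested.

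The verification and incision genes include Xpa, the TFIIH helicases Ercc2 and Ercc3, and the nucleases Ercc1 (with its partner) and Ercc5. All 5 tested liver estimates lay between 0.01 and 0.47, and none of these genes had an adjusted p below 0.691 (limma-voom). Xpa had 0.47 (SE 0.52, limma adjusted p = 0.691), at 2.95 to 8.90 CPM in control and 6.11 to 10.6 CPM in NDEA. It was 0.22 without control 4 and 0.76 without control 1. Ercc1 was at 9.21, 9.11, 1.08 and 9.96 CPM in control and at 4.89, 6.27, 9.42 and 4.05 CPM in NDEA liver. Its estimate of 0.05 was -0.67 without control 3, the low library, and neither was called. In marrow Ercc1 reached at most 2.82 CPM and was not tested. Ercc5 had a marrow estimate of 0.61 (SE 0.61, limma adjusted p = 0.638), which was 0.30 without control 2 and 0.90 without NDEA 3.

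Of the mismatch repair genes, Msh3, which recognises insertion and deletion loops, was at 40.0 to 60.4 CPM in control liver and 31.5 to 50.0 CPM in NDEA liver (log2 fold change -0.19, 95% interval -0.63 to 0.25). Msh6, which recognises mispairs, was at 11.7, 5.95, 7.93 and 10.1 CPM in control and at 6.42, 14.2, 7.74 and 17.7 CPM in NDEA liver, with overlapping groups (log2 fold change 0.25, SE 0.43, limma adjusted p = 0.816). In marrow it was at 60.3, 18.5, 21.5 and 39.0 CPM in control and at 22.2, 23.5, 17.5 and 14.2 CPM in NDEA (log2 fold change -0.61, SE 0.38, limma adjusted p = 0.445). This marrow estimate was -0.40 without control 1, the highest library, and -0.89 without control 2. Pms2, an endonuclease that nicks the strand to be repaired, had a liver estimate of 0.61 (SE 0.78, limma adjusted p = 0.732), which was 0.29 without NDEA 3 and 0.91 without control 3. In marrow Pms2 was at 12.2, 5.99, 23.7 and 7.15 CPM in control and at 26.4, 19.1, 13.7 and 27.5 CPM in NDEA (log2 fold change 1.10, SE 0.46, limma adjusted p = 0.291). Mlh3 had a marrow estimate of -2.08 (SE 1.11, limma adjusted p = 0.386), which was -0.62 without NDEA 4 and -2.93 without NDEA 3. Exo1, the exonuclease of the pathway, was at 0 counts in 7 of the 8 liver libraries and reached at most 3.75 CPM in marrow, and was not tested.

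**Figure D3:**
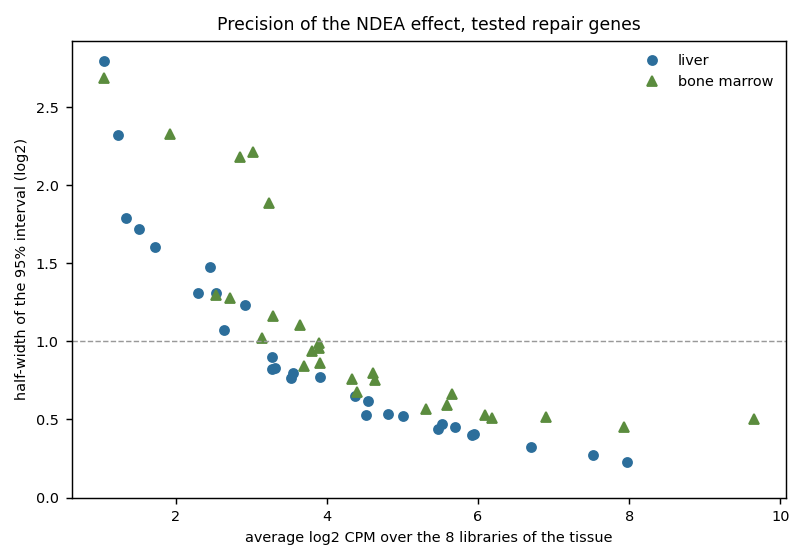
Half-width of the 95% interval of the log2 fold change against the average log2 CPM of each tested member (liver circles, marrow triangles); the dashed line marks a half-width of 1, a 2-fold change. Below a log2 CPM of 2 the median half-width was 1.79 in liver and 2.51 in marrow, and above 6 it was 0.27 and 0.51.

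Among other genes of these pathways, the 2 called in liver were of the list shared with replication. The lists are short, and a difference between them was not tested. Of the base excision partners (such as Mpg, which removes alkylated purines) 0 of 8 tested were called in liver. Of the nucleotide excision partners (TFIIH subunits and ubiquitin ligase parts) 0 of 15 were called. The share of all tested genes called in liver was 6.61%. Of 18 tested gap filling and ligation genes 2 were called higher and 0 lower, beside 2.87% and 3.74% of all tested genes. Lig1, the ligase of Okazaki fragments and of long-patch repair, rose from 12.6, 23.8, 33.7 and 23.0 CPM to 81.8, 89.1, 71.2 and 78.4 CPM, with all NDEA libraries above all controls (log2 fold change 1.87, SE 0.25, limma adjusted p = 1.98e-05). Rfc3, a clamp loader subunit, went up from a mean of 7.62 ± 4.24 (SD, n = 4) to 20.3 ± 6.61 CPM (limma adjusted p = 0.0408), a call kept in 7 of 17 alternatives. Pcna, the sliding clamp, was at 22.1 ± 9.79 and 40.9 ± 6.83 CPM (limma adjusted p = 0.0536). In marrow 0 of 19 gap filling and ligation genes were called, against 0.00% of all tested genes.

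These calls stood beside the dividing-cell genes of the same libraries. Mki67 rose from 4.04 ± 0.946 to 36.5 ± 9.07 CPM and Top2a from 7.46 ± 7.68 to 72.1 ± 23.2 CPM with NDEA (mean ± SD of 4 libraries). Summed leukocyte markers were at 231 to 264 CPM in control and 433 to 557 CPM in NDEA liver, stellate and stromal markers at 188 to 308 CPM and 404 to 497 CPM, and cholangiocyte markers at 6.64 to 16.8 CPM and 24.0 to 40.0 CPM, with Krt19 at 0. The part of these markers in the liver results was not tested. Mitochondrial genes took 16.2% to 20.6% of a liver control library and 20.1% to 22.4% of an NDEA one. In marrow the dividing-cell sums overlapped, at 1253 to 1572 CPM in control and 1209 to 1387 CPM in NDEA. The NDEA effect on Lig1 was 1.63 higher on the log2 scale in liver than in marrow (SE 0.37, limma adjusted p = 0.0191). Over all tested genes the median of this difference was 0.32. For Lig1 the difference was 1.34 without liver control 1 and 1.54 with every gene of at least 1 count tested, and neither was called (limma adjusted p = 0.0671 and 0.0514).

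The control libraries gave the level each tissue started from. Of 30 tested members 12 were called between control liver and control marrow, against 66.1% of all tested genes. Of these, 6 were higher in liver (against 32.8%) and 6 higher in marrow (against 33.4%). Higher in liver were Xpa (log2 difference 3.28), Xpc (2.33), Lig3 (1.53), Msh3 (1.45), Cetn2 (1.15) and Ung (1.02). Higher in marrow were Mutyh (-6.20), Ogg1 (-3.68), Pms2 (-1.60), Ddb1 (-1.57), Msh6 (-1.47) and Parp1 (-0.86). The adjusted p of these 12 ran from 3.22e-06 for Ddb1 to 0.0465 for Pms2 (limma-voom), and the call for Pms2 ended in 7 alternatives. Mutyh and Ogg1 were called in all 16 alternatives, but the size of their differences rests on liver controls with few counts. These were 1, 0, 20 and 11 for Mutyh and 10, 8, 0 and 22 for Ogg1. Without each library in turn the differences ran from -7.04 to -5.27 and from -4.365 to -2.55. With library totals alone, 10 of 30 members were called higher in marrow, against 3903 of 10071 tested genes. The median of all tested genes moved to -0.34. None of the 3 tested transcription-coupled genes was called. Of 19 gap filling and ligation genes, 15 were called higher in marrow and 2 in liver, with Lig1 at -4.34 and Pcna at -3.71.

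**Figure D4:**
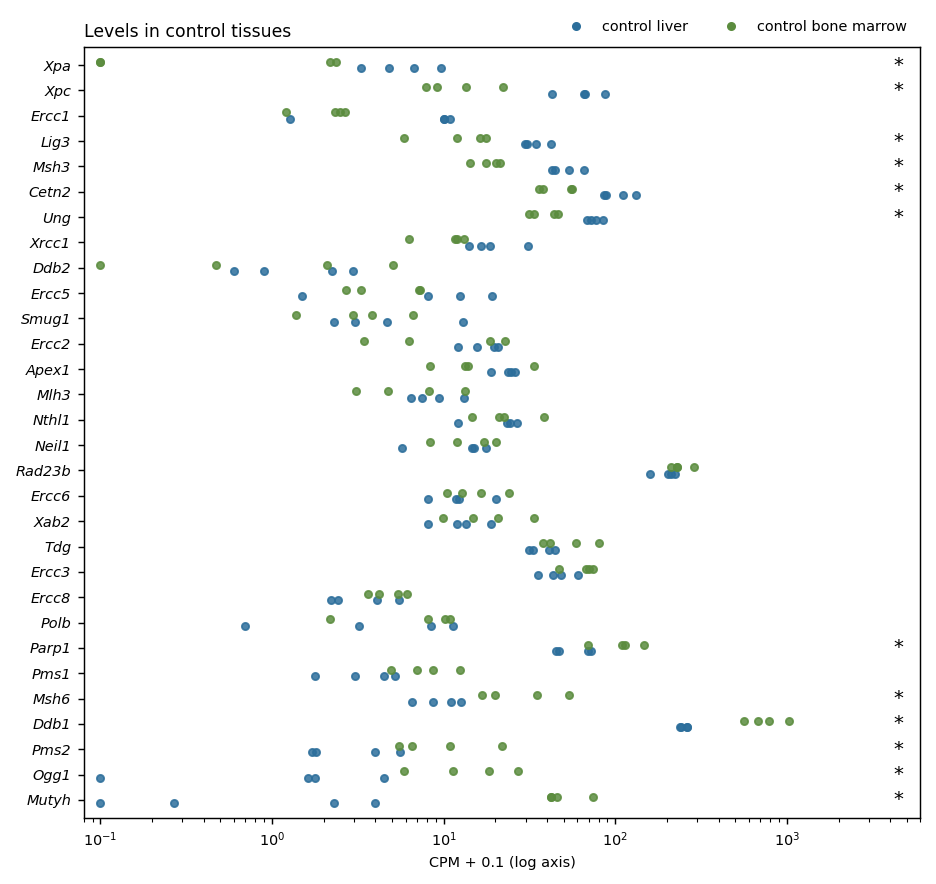
Level of each tested member in the 4 control liver and 4 control marrow libraries (CPM + 0.1, log axis), on a scale fitted to these 8 libraries and ordered by the difference; asterisks mark the 12 called members. Xpa and Xpc stand highest in liver relative to marrow, and Mutyh and Ogg1 highest in marrow relative to liver.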

How the data were processed

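RNA of 16 libraries, 4 in each of 4 groups, was counted per gene. The library kit was QuantSeq 3' (per the labels' protocols). Per the submitters' processing notes, the authors' tools included STAR and DESeq2 (versions not listed). Build, counting tool and strand setting: not given in the sources used here. The authors deposited raw counts, and the values used here were whole-number counts. The deposited table was damaged and could not be read directly as plain counts. In it 15591 of 32635 lines were held as a quoted cell, and 12 were continuation lines that were rejoined. In 16313 records the 4 deposited group totals, compared in sorted order, equalled the sums of the counts. The other 16310 records held no totals and were not checked in this way. A further 34 unnamed columns were not used.

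Tested genes had 15 or more counts in total and, in 4 or more libraries, a CPM worth 10 counts at median depth. TMM scaling (trims 0.3 and 0.05) was applied and the fit was limma-voom (limma 3.58.1, R 4.3.3, two-sided), each tissue alone. The treatment-by-tissue term came from all 16 libraries and the control comparison from 8. Tests ran over all genes passing the filter (9668 in liver, 9239 in marrow). The method was also run on simulated counts. Their spread was set and not taken from these libraries, so that run does not give the precision reached here.

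The members and lists were chosen with earlier results of these data known. Named were members called, those with the largest estimate of each role in each tissue, 9 members fixed by name, called partner genes, and Mki67, Top2a, Cdkn1a and Mdm2. No 2 libraries of a group agreed within sampling noise. Limits for 0 counts are 3 counts over the unscaled total of the library and cover counting error only.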

Additional observations from a re-analysis of the deposited data

Results flagged for a closer look

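In 8 of 112 groups of 4 libraries, 1 library lay far from the other 3 by Dixon's criterion, which chance meets in about 1 of 20 groups. In liver these were Xrcc1 in NDEA 3 (14.9 CPM, others 27.9 to 29.0), Parp1 in NDEA 1 (82.8 CPM, others 63.3 to 66.3), Polb in NDEA 2 (16.7 CPM, others 6.19 to 7.79), Mlh3 in NDEA 2 (8.73 CPM, others 12.3 to 12.8) and Ercc1 in control 3 (1.08 CPM, others 9.11 to 9.96). In marrow they were Mutyh in control 3 (81.2 CPM, others 47.0 to 50.6), Xpc in NDEA 1 (29.7 CPM, others 9.56 to 12.9) and Ddb1 in NDEA 2 (1099 CPM, others 678 to 733).

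The NDEA effect in liver exceeded that in marrow, by the limma-voom interaction test, for Lig1 (1.63 on the log2 scale, adjusted p = 0.0191), Mki67 (3.49, adjusted p = 0.00202), Top2a (4.72, adjusted p = 0.00499), Cdkn1a (4.04, adjusted p = 0.0165) and Mdm2 (2.15, adjusted p = 0.0113). None of the 30 tested members of the list, to which Lig1 does not belong, met this criterion.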

How the results depend on the processing

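That no member was called in marrow or in the interaction held under every alternative run, as it did in liver with 2 exceptions: limma-trend and the fit of all 16 libraries each called 1 member higher, Mutyh. Library totals alone gave 10 of 30 members higher in control marrow, beside 3903 of 10071 tested genes. They gave 5 of 29 members higher without overlap in NDEA liver, beside 882 of 9668 tested genes. In NDEA marrow they gave 1 of 27, beside 345 of 9239. Leaving out a library moved the members without overlap from 0 to 2 in some fits. Lower in liver there were 2 of 29 without NDEA 3, beside 796 of 9668 tested genes. Higher in marrow there were 2 of 27 without control 3, beside 810 of 9239 tested genes, and 2 without NDEA 3, beside 339. All correlations of the deviations of same-numbered libraries lay between -0.04 and 0.06. These cannot tell whether same-numbered liver and marrow libraries came from the same rat, since 2 tissues of a rat need not deviate alike. With the replicate block 0 members were called in either tissue, while 109 of all marrow genes were called higher and 180 lower; the log2 fold change of Ercc1 in liver became -0.41, of Ercc5 in liver -0.20, of Xpc in marrow -0.0532, and the tissue difference of Polb -0.26.

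Other changes of sign, in estimates that were never called, were as follows, and the cause was not tested. With the mitochondrial share as a covariate Ercc1 (-0.0197) and Ercc5 (-0.48) turned in liver, and Ddb1 (0.26), Ogg1 (0.22), Smug1 (0.52) and Xpc (-0.27) in marrow. With this covariate the liver log2 fold changes of Mki67, Top2a and Rfc3 were 2.38, 2.36 and 2.41 (SE 0.66, 0.70 and 0.81), against 3.16, 4.29 and 1.56 without it (SE 0.53, 0.81 and 0.46), and were not called (limma adjusted p = 0.0762, 0.106 and 0.176). Without marrow NDEA 3 and 4, Ddb1 (0.0571), Ogg1 (0.0587) and Smug1 (0.38) turned. Rad23b in liver was -0.00246 with every gene of at least 1 count. Xpc in marrow was -0.00765 with the 5 CPM filter, -0.00247 with median-of-ratios factors, -0.0401 with library totals and -0.0565 in the fit of all libraries. Quality weights turned the tissue difference of Ddb2 (-0.62) and Polb (-0.13). Over fits without each library in turn, liver estimates ran from -0.67 to 0.32 for Ercc1, -0.44 to 0.69 for Ercc5, -0.0248 to 0.49 for Msh6 and -0.0988 to 0.0667 for Rad23b. Marrow estimates ran from -0.24 to 0.0798 for Ddb1, -1.99 to 0.12 for Ogg1, -0.15 to 0.22 for Parp1 and -0.31 to 0.24 for Xpc. Tissue differences ran from -0.69 to 1.56 for Ddb2, -1.04 to 0.11 for Ercc5, -0.54 to 0.93 for Polb, -0.15 to 0.59 for Xab2 and -0.53 to 0.00696 for Xpc. Members below a log2 CPM of 2 had a median interval of more than a 2-fold change either way; the part of depth in this was not tested.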
